A study of Saccharomyces cerevisiae with 18 samples.

Results

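The 35 genes described here are general stress genes of the budding yeast Saccharomyces cerevisiae: the paired transcription factors Msn2 and Msn4 and genes known as their targets, chosen by name out of 6465 gene windows. Earlier results of these data were known when they were chosen. All 35 were found in each of the 18 libraries. The libraries came from SLAM-seq, in which 4-thiouracil (4tU) taken up by the cells is read as T-to-C conversions, so that new RNA can be told from RNA made before the pulse. Both strains express the auxin receptor OsTIR1 from the promoter that the labels name pGPD1, with a HIS3 marker, and carry auxin degron tags on both BET-family bromodomain proteins (BDF1-3XV5-mAID-URA3 and BDF2-3XV5-mAID-kanMX). RDY73 has no further copy in its listed genotype, and RDY234 also has pBDF1-BDF1::TRP1, an untagged BDF1 with its own promoter. In each strain, 3 cultures received 1 mM 3-indoleacetic acid (IAA, an auxin) for 25 min and then 5 mM 4tU for 4 min, 3 received DMSO in place of IAA and then the same 4tU (the DMSO group), and 3 received DMSO at both steps (the control group). All grew in YPD at 30 °C, and the labels call the replicates biological, so p-values measure the spread between these cultures. Each genotype is represented by 1 strain, so the untagged BDF1 copy and any other difference between RDY73 and RDY234 cannot be told apart.

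Msn2 and Msn4 are zinc-finger activators that cAMP-dependent protein kinase keeps in the cytoplasm of growing cells. When glucose runs out, or under heat, salt or oxidants, they enter the nucleus and bind the stress response element, AGGGG on either strand, upstream of a broad set of genes. Their targets include heat-shock proteins, hydrophilins and cell-surface proteins, antioxidant enzymes, and enzymes of glycerol, aldehyde, pentose phosphate and NAD metabolism. Bdf1 and Bdf2 bind acetylated histones, and Bdf1 associates with the general transcription factor TFIID.

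Upstream sequence was searched for the element because it is what ties these genes to Msn2 and Msn4. The window ran from 151 to 450 bases before the start codon in build R64, 300 bases for each gene, and the search was for AGGGG and its reverse complement CCCCT. At least 1 element was in 26 of the 35 windows (74.3%), against 1403 of 6000 windows of protein-coding genes (23.4%), and at least 2 were in 15 (42.9%), against 227 (3.78%). The genes are known as targets partly through this element, so the count describes them and supports nothing further. HSP12 held 5 elements, PNC1 4, and DDR2, CYC7, SPI1 and XBP1 3 each. The 9 windows without one were those of MSN2, MSN4, ALD2, GRE1, GRE3, HSP30, SOD2, SOL4 and TFS1, which says only that these letters were not in this window. The windows of 6 genes that the results turn on are shown in the direction of transcription with the elements in capitals. HSP12 (chrVI:106806-107105, plus strand), DDR2 (chrXV:231906-232205, minus strand), YGP1 (chrXIV:336095-336394, plus strand) and CTT1 (chrVII:654184-654483, plus strand) are shown because their total RNA rose with IAA in RDY73 and was higher in RDY73 than in RDY234 in the controls, and MSN2 (chrXIII:346668-346967, minus strand) and MSN4 (chrXI:322778-323077, plus strand) because theirs fell with IAA in RDY73.
HSP12: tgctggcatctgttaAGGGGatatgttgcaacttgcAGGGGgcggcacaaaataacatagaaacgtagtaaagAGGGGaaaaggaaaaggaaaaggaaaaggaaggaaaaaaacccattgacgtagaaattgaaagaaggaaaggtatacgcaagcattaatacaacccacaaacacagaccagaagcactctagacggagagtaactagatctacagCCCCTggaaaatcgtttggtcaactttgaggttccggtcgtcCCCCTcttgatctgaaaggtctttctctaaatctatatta
DDR2: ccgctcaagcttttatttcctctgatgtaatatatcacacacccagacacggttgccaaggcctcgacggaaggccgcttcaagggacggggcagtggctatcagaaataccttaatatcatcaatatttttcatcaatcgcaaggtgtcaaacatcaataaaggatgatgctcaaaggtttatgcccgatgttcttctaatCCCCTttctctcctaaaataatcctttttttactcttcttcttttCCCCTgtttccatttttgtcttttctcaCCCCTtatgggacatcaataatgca
YGP1: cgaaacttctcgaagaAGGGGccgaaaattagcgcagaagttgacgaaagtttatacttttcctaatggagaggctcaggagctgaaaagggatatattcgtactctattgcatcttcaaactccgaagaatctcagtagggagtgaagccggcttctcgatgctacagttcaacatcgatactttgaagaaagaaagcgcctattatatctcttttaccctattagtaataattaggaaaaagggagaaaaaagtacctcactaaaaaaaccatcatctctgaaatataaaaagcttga
CTT1: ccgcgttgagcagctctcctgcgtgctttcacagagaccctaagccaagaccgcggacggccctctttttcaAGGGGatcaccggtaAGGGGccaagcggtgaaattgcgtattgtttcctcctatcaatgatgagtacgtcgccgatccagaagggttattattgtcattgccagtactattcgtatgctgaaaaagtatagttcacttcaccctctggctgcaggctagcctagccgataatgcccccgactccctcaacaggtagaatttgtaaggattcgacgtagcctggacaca
MSN2: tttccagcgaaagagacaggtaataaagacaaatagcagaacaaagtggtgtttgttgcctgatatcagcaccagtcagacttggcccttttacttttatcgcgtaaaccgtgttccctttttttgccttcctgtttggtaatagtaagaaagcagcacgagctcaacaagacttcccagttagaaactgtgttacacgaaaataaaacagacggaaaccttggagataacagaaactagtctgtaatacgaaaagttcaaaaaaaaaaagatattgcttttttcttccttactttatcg
MSN4: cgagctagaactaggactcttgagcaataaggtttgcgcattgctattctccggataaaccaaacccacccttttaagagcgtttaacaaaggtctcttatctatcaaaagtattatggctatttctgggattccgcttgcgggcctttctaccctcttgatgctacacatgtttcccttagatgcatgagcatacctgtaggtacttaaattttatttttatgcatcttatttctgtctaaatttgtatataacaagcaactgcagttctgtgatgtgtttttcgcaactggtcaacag
In HSP12 the elements began 435, 414, 377, 232 and 190 bases before the start codon, and in DDR2 248, 203 and 175 bases before it. CTT1 had 2, at 378 and 363 bases, and YGP1 had 1, at 434 bases.

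Depth ran between 4177363 and 8541751 S. cerevisiae reads and 387855 to 792178 reads of the 4tU-labelled Schizosaccharomyces pombe cells mixed in as a spike-in. The 35 genes took 15203 to 54856 reads of a library. Labelled reads, those with at least 2 conversions, numbered 623 to 1615 on the 35 genes with 4tU and 82 to 117 without it. Levels are reads per gene window scaled to the S. pombe reads of the library, without correction for length, and are compared within a gene only. A change is therefore one per S. pombe read, and in these cultures fewer cells and less RNA per cell cannot be told apart. BDF1 total reads averaged 712 in RDY73 with IAA and 751 with DMSO, against 2337 and 2458 in RDY234, and TRP1 was at 332 to 340 in the groups of RDY234 and 11.7 to 14.1 in those of RDY73, as the genotypes give. The tagged proteins themselves were not measured by these reads.

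The first comparison asks what IAA did to the amount of stress mRNA when both tagged proteins could be targeted. In RDY73, total RNA of 9 of the 35 genes rose, that of 3 fell and 23 did not pass (edgeR's quasi-likelihood test, Benjamini-Hochberg adjusted p under 0.05). Over all 6100 genes tested 1.16% rose and 77.9% fell. The median log2 change of the 35 was 0.04, against −1.24 over all genes. The genes that rose were CTT1, DDR2, XBP1, HSP12, YGP1, GPD1, RTN2, UBI4 and STF2. Those that fell were ALD2 and both activators, MSN2 and MSN4. The heat-shock genes HSP26, HSP30 and HSP31 did not pass, nor did SPI1, GRE1, SIP18, PHM7 and HOR7, grouped here with the surface proteins and hydrophilins. With TMM normalisation on S. cerevisiae genes in place of the spike-in, called relative scaling here, 33 of the 35 were higher and 0 lower, with 29.6% of all genes higher and 30.8% lower and the all-gene median at −0.10. The values of MSN2, MSN4 and ALD2 turned positive under it.

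**Figure D1:**
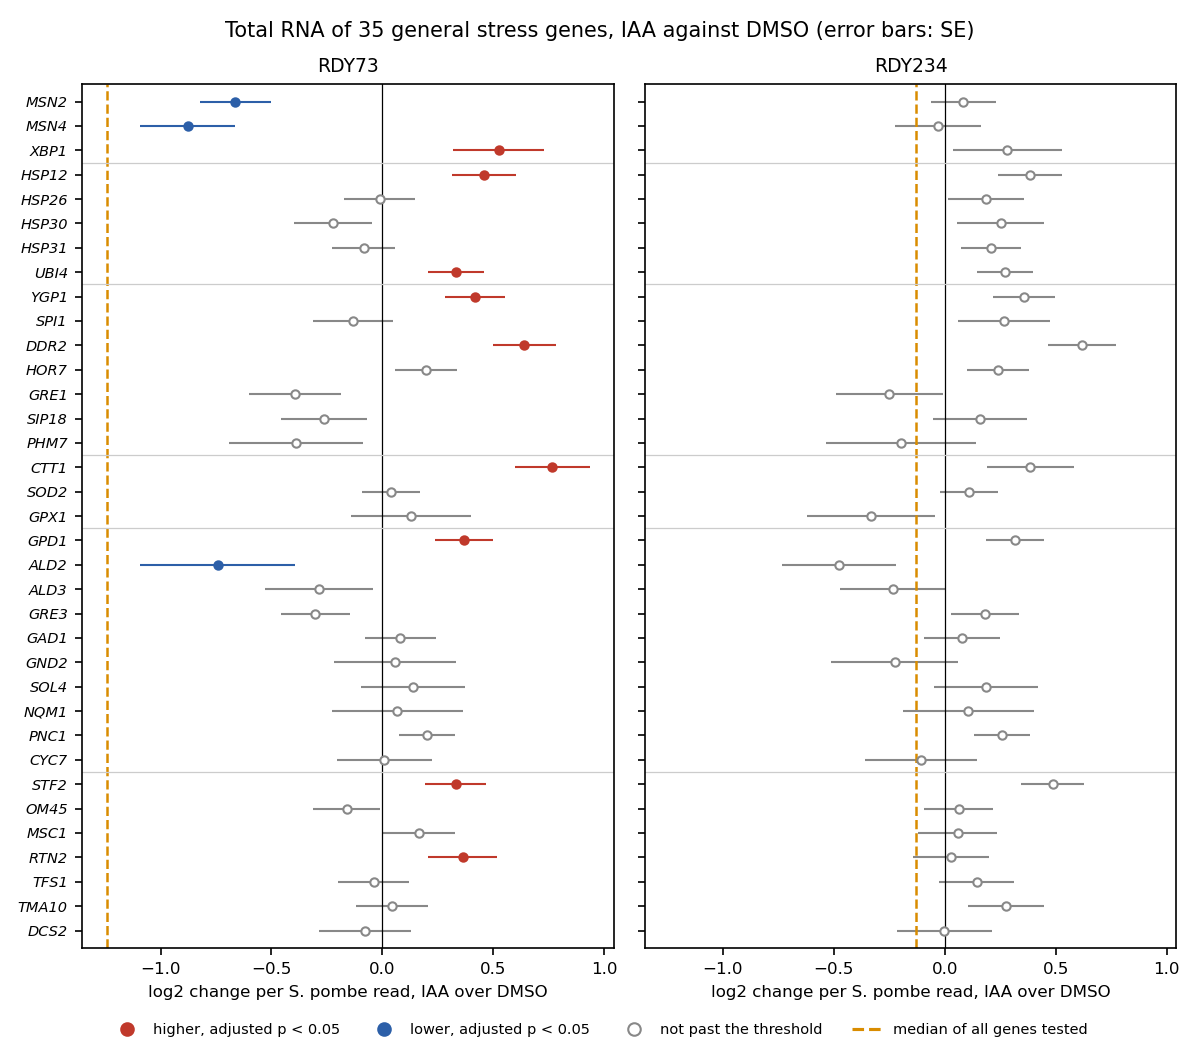
Log2 change of total RNA per S. pombe read with IAA over DMSO in RDY73 (left) and RDY234 (right) for the 35 genes, ordered by role, with bars of 1 SE and the median of all 6100 genes tested as a dashed line. In RDY73 all 35 genes lay to the right of the all-gene median of −1.24, with 9 past the threshold above 0 and 3 below it, and in RDY234 none passed.

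Among the transcription factors, MSN4 (YKL062W, chromosome XI 323228 to 325120) had 65.5, 35.7 and 44.0 scaled reads in RDY73 with IAA, against 104, 70.0 and 88.3 with DMSO. It fell by 0.88 ± 0.21 on the log2 scale (SE, adjusted p = 0.00025). MSN2 (YMR037C, chromosome XIII 344403 to 346517) had 99.2, 126 and 82.9 with IAA, against 161, 173 and 155 with DMSO, and fell by 0.66 ± 0.16 (adjusted p = 0.000216). The 2 groups did not overlap for either gene, and both calls held without any 1 of the 6 libraries. Both falls were smaller than the all-gene median, and under relative scaling MSN2 was 0.48 higher (adjusted p = 0.00337) and MSN4 0.26 (adjusted p = 0.306). XBP1, a stress-induced repressor of cyclin genes, went the other way, with 98.2, 138 and 105 with IAA, against 79.2, 81.9 and 76.7 with DMSO. It rose by 0.52 ± 0.20 (adjusted p = 0.0182), a call lost without IAA replicate B (0.36, adjusted p = 0.139).

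Heat-shock and membrane proteins were led by HSP12 (YFL014W, chromosome VI 107256 to 107585), a small protein that stabilises membranes. It had 4658, 4759 and 5400 scaled reads with IAA, against 3585, 3903 and 3306 with DMSO, a rise of 0.46 ± 0.14 (adjusted p = 0.00351) or 1.37-fold, and its groups did not overlap. UBI4, the polyubiquitin precursor, rose by 0.33 ± 0.13 (adjusted p = 0.0164), lost without DMSO replicate C (adjusted p = 0.0527). HSP26, a small chaperone, HSP30, a plasma-membrane protein, and HSP31, a protein of the DJ-1 family, did not pass, with changes of −0.01, −0.22 and −0.08.

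The next genes were grouped loosely here as surface proteins and hydrophilins. DDR2 (YOL052C-A, chromosome XV 231570 to 231755), a small multistress protein placed in this group, had 2615, 2639 and 2500 scaled reads with IAA, against 1853, 1621 and 1502 with DMSO. It rose by 0.64 ± 0.14 (adjusted p = 7.75e-05), 1.56-fold, and its lowest library with IAA was above its highest with DMSO. YGP1 (YNL160W, chromosome XIV 336545 to 337609), a secreted cell-wall glycoprotein, had 2347, 2661 and 2692 with IAA, against 2014, 2129 and 1627 with DMSO, and rose by 0.42 ± 0.13 (adjusted p = 0.00456). That call was lost without DMSO replicate C, the lowest of its group (0.31, adjusted p = 0.0506). HOR7, a small protein induced by high osmolarity, supplied the most reads of the 35 genes and did not pass, with 19632, 22894 and 24690 reads with IAA, against 18383, 22510 and 17793 with DMSO (0.20 ± 0.14, adjusted p = 0.192). The groups overlapped. SPI1, a cell-wall protein, the hydrophilins GRE1 and SIP18, and PHM7, a membrane protein, had changes of −0.13, −0.40, −0.26 and −0.39 and did not pass. GRE1 passed in the fit of the 6 compared libraries alone (adjusted p = 0.0158).

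CTT1 (YGR088W, chromosome VII 654634 to 656322), the cytosolic catalase, showed the largest rise of the 35. It had 242, 276 and 241 scaled reads with IAA, against 168, 159 and 120 with DMSO, a rise of 0.77 ± 0.17 (adjusted p = 6.64e-05) or 1.70-fold. No library of the groups overlapped, and the call held without any 1 of the 6. SOD2, the mitochondrial manganese superoxide dismutase, did not pass, with 1410, 1754 and 1568 reads with IAA, against 1563, 1701 and 1351 with DMSO (0.04 ± 0.13, adjusted p = 0.8). Its window overlaps YHR007C-A on the same strand. GPX1, a glutathione peroxidase, had 0.13 ± 0.27.

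Among metabolic genes, GPD1 (YDL022W), the glycerol-3-phosphate dehydrogenase that makes glycerol under osmotic stress, rose by 0.37 ± 0.13 (adjusted p = 0.0104), with 1271, 1403 and 1476 reads with IAA, against 1149, 1151 and 920 with DMSO. The call was lost without DMSO replicate C (0.27, adjusted p = 0.084) or IAA replicate C (0.32, adjusted p = 0.0509). The labels name a promoter pGPD1 in the OsTIR1 construct, and whether it is the promoter of this gene was not tested. The GPD1 window begins at the start of the gene and leaves out the sequence upstream. Whether construct reads fell in it was not tested. ALD2, a cytosolic aldehyde dehydrogenase, had 10.9, 19.5 and 13.5 reads with IAA, against 24.4, 31.3 and 20.4 with DMSO, a fall of 0.74 ± 0.35 (adjusted p = 0.0492). That call was lost without DMSO replicate A (adjusted p = 0.0809) or B (0.164), or IAA replicate A (0.159) or C (0.112). ALD2 lies beside its paralogue ALD3 (−0.29, adjusted p = 0.282), and 4 of 827 ALD2 reads and 2 of 941 ALD3 reads were counted as multimapped. The aldose reductase GRE3 (−0.30) passed as a fall without DMSO replicate C (−0.49, adjusted p = 0.00514) and not otherwise. The glutamate decarboxylase GAD1 (0.08), the nicotinamidase PNC1 (0.20) and cytochrome c isoform CYC7 (0.01) did not pass. Neither did the pentose phosphate genes GND2 (0.06), SOL4 (0.14) and NQM1 (0.07).

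Of the other products, STF2, a hydrophilin linked to the mitochondrial ATP synthase, rose by 0.33 ± 0.14 (adjusted p = 0.0262), and RTN2, a reticulon of the endoplasmic reticulum, by 0.36 ± 0.15 (adjusted p = 0.0308). STF2 lost its call without DMSO replicate B (0.31), DMSO replicate C (0.25), IAA replicate B (0.31) or IAA replicate C (0.29), and RTN2 without DMSO replicate A (0.33), DMSO replicate C (0.30), IAA replicate B (0.35) or IAA replicate C (0.32). TMA10, a ribosome-associated relative of STF2, MSC1, whose role is poorly known, and the mitochondrial outer-membrane protein OM45 had changes of 0.04, 0.16 and −0.16. TFS1, an inhibitor of carboxypeptidase Y, and DCS2, a relative of the scavenger decapping enzyme, had −0.04 and −0.08. The count of genes that rose was 4 without DMSO replicate C and 6 to 9 without any other 1 library. HSP12, DDR2, CTT1, MSN2 and MSN4 kept their calls in all 6 fits that each left out 1 library.

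**Figure D2:**
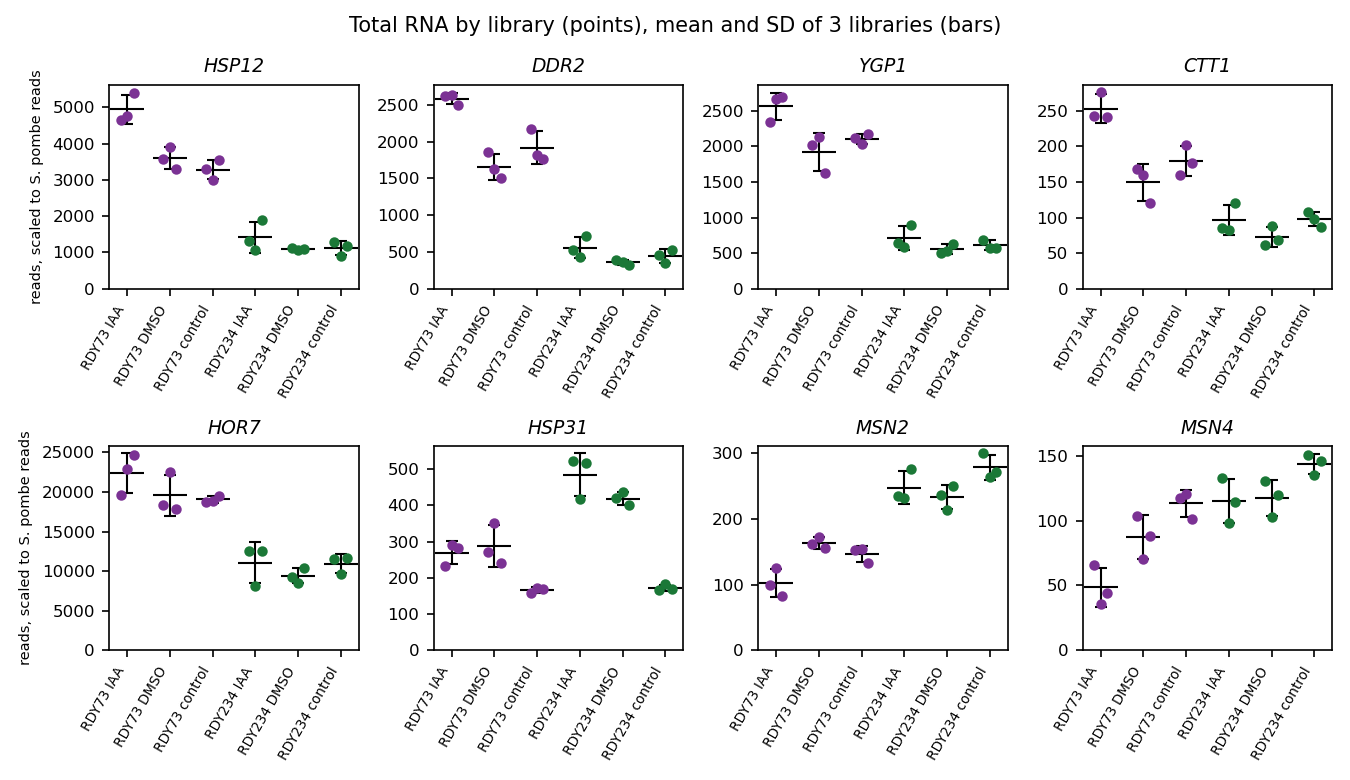
Total reads scaled to S. pombe reads of the library (vertical axis) for 8 of the genes in each group (horizontal axis), with points for the 3 libraries and bars for mean and SD. HSP12, DDR2, YGP1, CTT1 and HOR7 have higher means in all RDY73 groups than in any RDY234 group, MSN2 and MSN4 are lowest in RDY73 with IAA, and HSP31 stands higher in the 4 groups given 4tU than in the 2 controls.

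The same comparison in RDY234 shows the effect of IAA with untagged Bdf1 present. None of the 35 genes passed for total RNA in edgeR or in DESeq2, with 7 of the 35 higher and 0 lower at an unadjusted p under 0.05 in either tool. Over all genes 0.0164% rose and 0.0164% fell, the median change of the 35 was 0.16 and that of all genes was −0.13. DDR2 had 522, 431 and 713 reads with IAA, against 388, 370 and 323 with DMSO, a difference of 0.62 ± 0.15 (adjusted p = 0.288) with no overlap. Without IAA replicate B, its lowest, DDR2 passed (0.78, adjusted p = 0.0191). HSP12 had 0.38 ± 0.15, YGP1 0.36 ± 0.14, CTT1 0.39 ± 0.20 and STF2 0.49 ± 0.14, with adjusted p-values of 0.581, 0.581, 0.627 and 0.581. Under relative scaling 5 of the 35 rose and 0 fell, against 0.23% and 0.0164% of all genes. They were DDR2 (0.73), STF2 (0.60), YGP1 (0.47), GPD1 (0.43) and UBI4 (0.40).

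Whether the strains differed in the effect of IAA was tested directly. On total RNA 0 of the 35 genes had a larger change in RDY73 than in RDY234 (0 at an unadjusted p under 0.05 in edgeR, and 0 in DESeq2) and 3 had a lower one, against 0.541% and 69.4% of all genes. The 3 were MSN4 (−0.85 ± 0.29, adjusted p = 0.00814), MSN2 (−0.75 ± 0.22, adjusted p = 0.00214) and GRE3 (−0.48 ± 0.22, adjusted p = 0.0437). MSN4 had 133, 98.4 and 114 reads in RDY234 with IAA, against 130, 102 and 119 with DMSO, and MSN2 had 235, 232 and 276, against 237, 214 and 250, so the groups of RDY234 overlapped for both. The GRE3 call was lost in DESeq2 (adjusted p = 0.0563) and in 9 of the 12 fits that left out 1 library (adjusted p = 0.0504 to 0.172). It held without RDY73 DMSO replicate C, RDY234 DMSO replicate C or RDY234 IAA replicate B. For the 9 genes that rose in RDY73, the difference between strains did not pass and ran between −0.16 for STF2 and 0.38 for CTT1. DDR2 differed by 0.02 ± 0.21 (adjusted p = 0.937), HSP12 by 0.07 ± 0.20 (adjusted p = 0.76) and CTT1 by 0.38 ± 0.26 (adjusted p = 0.191). The rise of these genes was therefore not shown to differ between the strains per S. pombe read. HSP30 passed as lower without RDY234 DMSO replicate A (−0.65) or RDY73 IAA replicate B (−0.61), and SPI1 without RDY234 IAA replicate A (−0.61). The median difference of the 35 was −0.06, against −1.10 over all genes. Under relative scaling 29 of the 35 were higher in RDY73 and 0 lower, against 23.1% and 20.9% of all genes, with CTT1 at 1.41 and DDR2 at 1.07, while MSN2 (0.27) and MSN4 (0.17) did not pass.

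New RNA, made within the 4 min pulse, could be tested for 18 of the 35 genes, those with at least 10 labelled reads in at least 3 of the 12 libraries given 4tU. The other 17 had 0 to 20 labelled reads in a library, and CTT1, XBP1 and GRE1 were among them. Only 7 of the 18 had 10 or more in all 12 libraries, so the 18 are not all of the genes. ALD3, GRE3, MSC1, MSN4 and RTN2 had 10 or more in 0 to 2 of the 6 RDY73 libraries and so entered through RDY234, and DDR2 had 10 or more in 2 of the 6 RDY234 libraries and entered through RDY73. In RDY73, new RNA of 3 of the 18 rose with IAA and that of 5 fell, against 0.385% and 83.9% of 5195 genes, with a median of −0.15 against −1.97. When the fit and its filter used the 6 compared libraries alone, 13 of the genes were tested, 3 rose and 1 fell. Of all 3224 genes tested in that fit, 15 rose and 2724 fell. TMA10 kept its call there (−1.22, adjusted p = 0.00579), MSN2 lost it, and MSN4, RTN2 and GRE3 had too few labelled reads to be tested. Under relative scaling 12 rose and 0 fell, against 16.3% and 11.5% of all genes, with the all-gene median at −0.29.

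HSP12 had 54.1, 56.9 and 76.5 scaled labelled reads in RDY73 with IAA, against 24.2, 28.9 and 19.8 with DMSO. Its new RNA rose by 1.38 ± 0.32 (adjusted p = 4.3e-05), 2.60-fold. DDR2 had 52.1, 68.6 and 41.7 with IAA, against 15.8, 25.9 and 28.1 with DMSO, and rose by 1.23 ± 0.33 (adjusted p = 0.00038). For both genes every library with IAA was above every library with DMSO, and both calls held without any 1 of the 6. The unscaled labelled reads of HSP12 were 53, 68 and 88 with IAA and 23, 19 and 19 with DMSO, against 3, 0 and 7 in the RDY73 control without 4tU. GPD1 rose by 0.49 ± 0.20 (adjusted p = 0.0189), with 74.6, 120 and 123 with IAA, against 76.8, 79.2 and 71.9 with DMSO. Its groups overlapped and the call was lost without DMSO replicate C (adjusted p = 0.0593), IAA replicate B (0.0948) or IAA replicate C (0.107).

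Among those that fell, MSN4 had 8.17, 0.836 and 7.83 scaled labelled reads with IAA, against 17.9, 12.2 and 14.6 with DMSO, a fall of 1.45 ± 0.51 (adjusted p = 0.00604) that was lost without IAA replicate B (−0.91, adjusted p = 0.0966). MSN2 had 6.13, 20.9 and 12.2, against 26.3, 24.4 and 21.9, and fell by 0.85 ± 0.37 (adjusted p = 0.0272). The MSN2 call was lost without DMSO replicate A (−0.77), IAA replicate A (−0.54) or IAA replicate C (−0.78), and in the fit of the 6 compared libraries (adjusted p = 0.0556). Neither gene's groups overlapped. TMA10 had 8.17, 10.9 and 15.7 with IAA, against 29.5, 28.9 and 24.0 with DMSO, and fell by 1.22 ± 0.40 (adjusted p = 0.00346) without overlap, in every fit that left out 1 library. With a threshold of 1 conversion TMA10 did not pass (−0.31, adjusted p = 0.183).

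RTN2 had 4.09, 0.836 and 5.22 scaled labelled reads with IAA, against 14.7, 12.2 and 4.17 with DMSO, with overlap, and fell by 1.58 ± 0.66 (adjusted p = 0.0206). The RTN2 call was lost without DMSO replicate A (−1.17) or B (−1.47) or IAA replicate B (−1.10), and when 1 conversion sufficed (−0.17, adjusted p = 0.696). GRE3 had 6.13, 5.02 and 5.22, against 13.7, 12.2 and 9.38, and fell by 1.09 ± 0.53 (adjusted p = 0.0457), which held without DMSO replicate C and was lost without any other 1 of the 6 libraries (adjusted p = 0.0508 to 0.136). These 2 genes had at most 14 unscaled labelled reads in any RDY73 library. The count of genes that fell was 2 without IAA replicate B and 3 without DMSO replicate A, DMSO replicate B or IAA replicate A. These counts include genes outside the 5. Without DMSO replicate A, RTN2, GRE3 and MSN2 lost their calls and SOD2 newly passed as a fall (−0.62, adjusted p = 0.0118). Without IAA replicate C, GRE3 and MSN2 lost theirs, and SOD2 (−0.59) and ALD3 (−3.14) newly passed.

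The 10 other genes tested did not pass and lay between −1.21 for ALD3 and 0.22 for HOR7. OM45 lay near the level without 4tU. Its unscaled labelled reads were 8, 15 and 15 with IAA and 16, 7 and 11 with DMSO, against 10, 10 and 9 in the RDY73 control. UBI4 had 32, 66 and 44 with IAA and 31, 32 and 52 with DMSO, against 12, 8 and 18 in that control. HOR7 had 277, 314 and 387 scaled labelled reads with IAA, against 228, 327 and 287 with DMSO (0.22 ± 0.15, adjusted p = 0.163). YGP1 had 85.8, 108 and 95.7, against 88.4, 102 and 66.7 (0.19 ± 0.23, adjusted p = 0.429). SOD2 had 44.9, 64.4 and 78.3, against 56.8, 83.7 and 108 (−0.40 ± 0.22, adjusted p = 0.0769), and passed as a fall without DMSO replicate A (−0.62, adjusted p = 0.0118) or IAA replicate C (−0.59, adjusted p = 0.0195). The groups of all 3 overlapped. For RTN2 and TMA10, whose new RNA fell, the total RNA changes were 0.36 and 0.04, and the difference between new and total RNA was not tested.

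**Figure D3:**
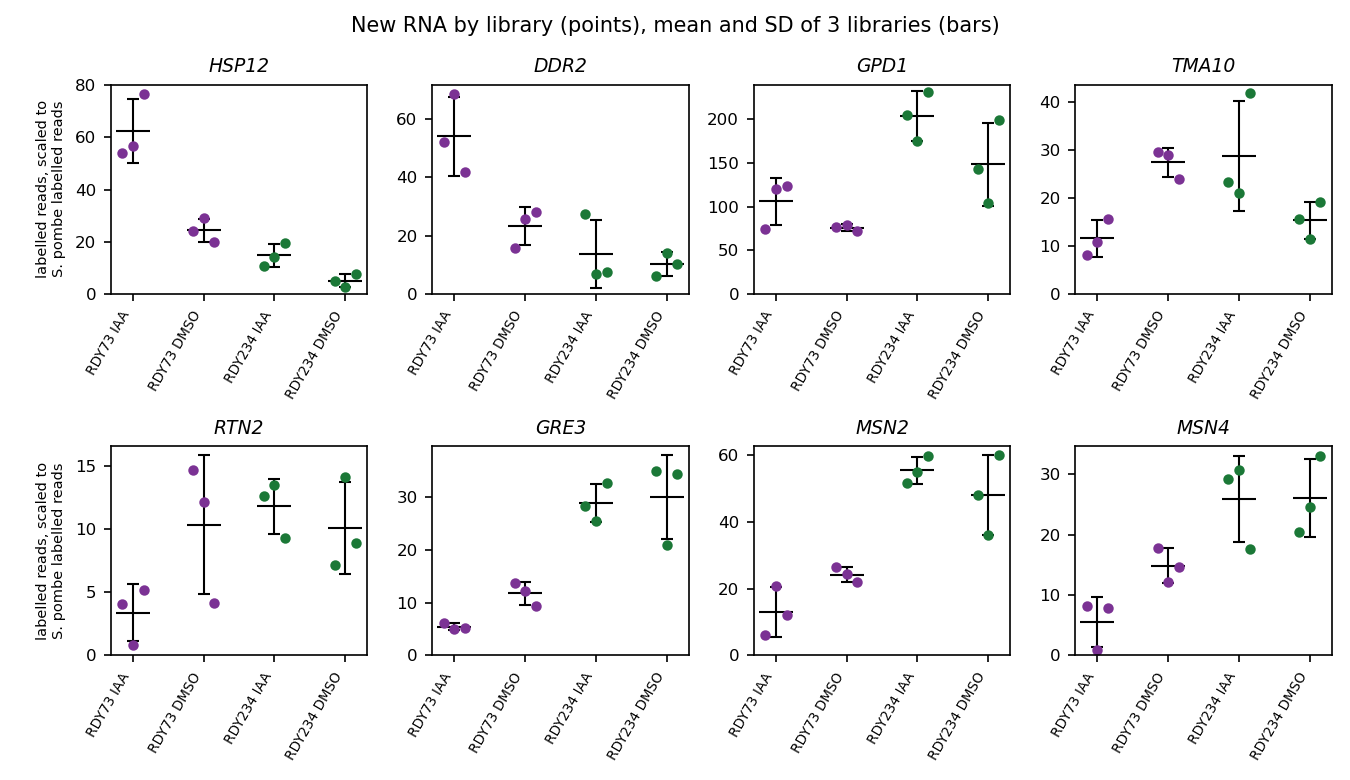
Labelled reads scaled to the labelled S. pombe reads of the library (vertical axis) for 8 genes past the threshold in RDY73, in the 4 groups given 4tU (horizontal axis), with points for the 3 libraries and bars for mean and SD. With IAA in RDY73, HSP12 and DDR2 stand above the DMSO group, and TMA10, GRE3, MSN2 and MSN4 stand below it.

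In RDY234 none of the 18 genes passed for new RNA in edgeR or DESeq2, with 4 of them higher and 0 lower at an unadjusted p under 0.05 in either tool, against 0.0192% of all genes higher and 0.0192% lower. The median was 0.34, against −0.12 over all genes. HSP12 had 10.7, 14.3 and 19.6 scaled labelled reads with IAA, against 4.80, 2.84 and 7.64 with DMSO, a difference of 1.58 ± 0.50 (adjusted p = 0.638) from 3 to 21 unscaled reads a library. Its unscaled reads with DMSO were 4, 3 and 6, against 6, 1 and 3 in the RDY234 control without 4tU. The DMSO values thus lay near the level without 4tU. HOR7 had 322, 293 and 424, against 198, 199 and 287 (0.61 ± 0.16, adjusted p = 0.122), without overlap. HOR7 passed without DMSO replicate C (0.80, adjusted p = 0.0158), in the fit of the 6 compared libraries alone (adjusted p = 0.0399) and under relative scaling (0.73), where it was the 1 gene of the 18 to rise, 0 fell, and 0.0962% of all genes rose and 0.0192% fell.

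The effect of IAA on new RNA was lower in RDY73 than in RDY234 for 4 of the 18 genes and higher for 0 (0 at an unadjusted p under 0.05 in edgeR, and 0 in DESeq2), against 74.2% and 0.231% of all genes. TMA10 differed by −2.13 ± 0.56 (adjusted p = 0.000385), and its labelled reads in RDY234 were 23.4, 21.0 and 41.9 with IAA, against 15.6, 11.4 and 19.1 with DMSO. This call held in all 12 fits that left out 1 library. RTN2 differed by −1.79 ± 0.85 (adjusted p = 0.0485), MSN4 by −1.45 ± 0.63 (adjusted p = 0.0304) and MSN2 by −1.07 ± 0.47 (adjusted p = 0.0306). The MSN4 call was lost without RDY73 DMSO replicate A, RDY73 IAA replicate B, or replicate A or B of either RDY234 group (adjusted p = 0.0507 to 0.181). The MSN2 call was lost without RDY73 DMSO replicate A, RDY73 IAA replicate A or C, RDY234 DMSO replicate B or RDY234 IAA replicate C (adjusted p = 0.0525 to 0.133). The RTN2 call was lost in 7 of the 12 (adjusted p = 0.0705 to 0.18), namely without RDY73 DMSO replicate A or B, RDY73 IAA replicate B, RDY234 DMSO replicate A or C, or RDY234 IAA replicate A or B. It was also lost in DESeq2 (adjusted p = 0.0626). HSP12 differed by −0.20 ± 0.57 (adjusted p = 0.754) and DDR2 by 0.86 ± 0.56 (adjusted p = 0.147), so their rise in RDY73 was not shown to differ from RDY234. For HSP12 the RDY234 DMSO values lay near the level without 4tU, so its rise cannot be called alike in the strains either. DDR2 passed as higher without RDY234 IAA replicate A (1.77, adjusted p = 0.0103), the library with the most DDR2 of its group. HOR7 (−0.38) passed as lower without RDY73 DMSO replicate A (−0.52), RDY73 IAA replicate C (−0.53), RDY234 DMSO replicate C (−0.58) or RDY234 IAA replicate B (−0.49). The median difference of the 18 was −0.51, against −1.82. Under relative scaling 8 of the 18 were higher and 0 lower, against 11.6% and 6.68% of all genes.

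The strains already differed before any IAA or 4tU, where the comparison asks what the tagged genes without an untagged BDF1 went with. In the controls, total RNA of 18 of the 35 genes was higher in RDY73 than in RDY234 and that of 5 was lower, against 2.21% and 77.5% of all genes. The median difference was 0.49 for the 35 and −0.68 over all genes. Under relative scaling 29 were higher and 0 lower, against 14.3% and 9.21%. DDR2, YGP1 and HSP12 led the higher genes.

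DDR2 had 2174, 1813 and 1766 scaled reads in RDY73 controls, against 464, 347 and 530 in RDY234 controls, a difference of 2.10 ± 0.15 (adjusted p = 1.58e-14) or 4.28-fold. YGP1 had 2116, 2032 and 2168, against 688, 569 and 579, a 3.44-fold difference (1.78 ± 0.14, adjusted p = 1.68e-13). HSP12 had 3308, 3006 and 3536, against 1286, 899.5 and 1188, a 2.92-fold difference (1.54 ± 0.15, adjusted p = 4.19e-11). For these 3 genes the lowest RDY73 library was more than 2-fold above the highest RDY234 library. GRE1 had 262, 257 and 292 in RDY73, against 129, 107 and 91.5 in RDY234 (1.31 ± 0.22), and SPI1 had 377, 363 and 393, against 202, 131 and 132 (1.28 ± 0.19). HSP30 had 245, 251 and 277, against 162, 113 and 88.9 (1.09 ± 0.18), and TMA10 had 927, 770 and 827, against 534, 353 and 311 (1.08 ± 0.17). None of these groups overlapped, their adjusted p-values ran up to 2.39e-06, and all 7 calls held without any 1 library.

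HOR7 had 18762, 18893 and 19552 scaled reads in RDY73 controls, against 11539, 9578 and 11717 in RDY234 controls (0.80 ± 0.14, adjusted p = 3.95e-06). CTT1 (0.88), RTN2 (0.88), MSC1 (0.76), CYC7 (0.75), GAD1 (0.69), XBP1 (0.67) and STF2 (0.63) were also higher in every fit that left out 1 library. PHM7 (0.78), SIP18 (0.55) and HSP26 (0.49) were higher with calls that rested on single libraries. The call of PHM7 was lost without RDY234 control replicate B (0.55) or C (0.62) or RDY73 control replicate B (0.65), that of SIP18 without RDY234 control replicate C (0.34) or RDY73 control replicate A (0.40), and that of HSP26 without RDY234 control replicate B (0.34).

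The 5 lower genes were led by ALD2, with 45.0, 28.3 and 21.9 scaled reads in RDY73 controls, against 72.7, 89.4 and 69.5 in RDY234 controls (−1.26 ± 0.27, adjusted p = 8.39e-05). MSN2 had 152, 155 and 133, against 300.4, 264 and 272 (−0.92 ± 0.15, adjusted p = 1.18e-06), while MSN4 had 118, 120 and 101, against 150, 135 and 146 (−0.35 ± 0.19, adjusted p = 0.0855). ALD3 (−0.60), GRE3 (−0.33) and GPD1 (−0.32) were lower with calls lost without single libraries. Those were RDY234 control replicate B (−0.51) or RDY73 control replicate B (−0.46) for ALD3. For GRE3 they were RDY234 control replicate A (−0.23) or RDY73 control replicate A (−0.34), B (−0.31) or C (−0.32). For GPD1 they were RDY234 control replicate A (−0.27) or B (−0.31) or RDY73 control replicate B (−0.30) or C (−0.28). The count of lower genes was 2 without RDY73 control replicate B, 3 without RDY73 control replicate C, RDY234 control replicate A or RDY234 control replicate B, and 7 without RDY234 control replicate C. SOD2 (−0.21), UBI4 (−0.26) and 10 others did not pass, though SOD2 (−0.29) and UBI4 (−0.38) passed as lower without RDY234 control replicate C. GRE3 (adjusted p = 0.0605) and PHM7 (adjusted p = 0.0849) did not pass in DESeq2.

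**Figure D4:**
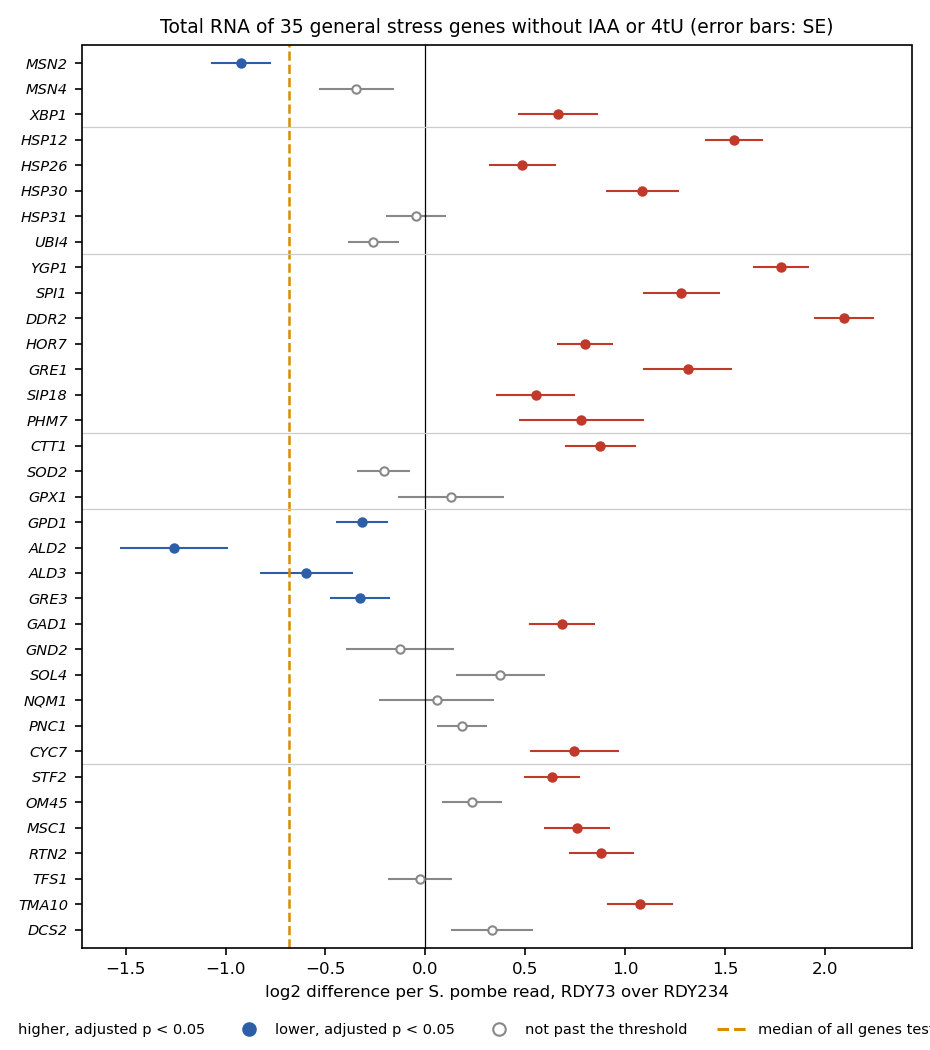
Log2 ratio of total RNA per S. pombe read in RDY73 over RDY234 controls, without IAA or 4tU, for the 35 genes ordered by role, with bars of 1 SE and the median of all 6100 genes tested as a dashed line. DDR2, YGP1 and HSP12 reach 2.10, 1.78 and 1.54, 18 genes are past the threshold above 0 and 5 below it, and the all-gene median lies at −0.68.

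New RNA of the DMSO groups was compared between strains for the same 18 genes. Of these 4 were higher in RDY73 and 5 lower, against 0.308% and 79.5% of all genes, with a median of −0.47 against −1.13. The labelled share of the reads of all genes was 4.08% in RDY73 and 7.29% in RDY234 with DMSO. Whether 4tU labelled new RNA equally well in the 2 strains was not tested. HSP12 was 4.80-fold higher (2.26 ± 0.48, adjusted p = 1.17e-05), from unscaled labelled reads of 23, 19 and 19 in RDY73 and 4, 3 and 6 in RDY234, and YGP1 was 3.08-fold higher (1.62 ± 0.27, adjusted p = 2.06e-08). In the RDY234 control without 4tU HSP12 had 6, 1 and 3 labelled reads, so its value in RDY234 lies near the level without 4tU. YGP1 had 88.4, 102 and 66.7 scaled labelled reads in RDY73, against 18.01, 23.7 and 42.0 in RDY234. DDR2 (1.15 ± 0.42, adjusted p = 0.0101) lost its call without RDY234 DMSO replicate A (0.89) or RDY73 DMSO replicate C (0.96) and with background subtracted (0.85). TMA10 (0.85 ± 0.40, adjusted p = 0.0432) lost its call without replicate A or B of either group (adjusted p = 0.0745 to 0.172), in DESeq2 (adjusted p = 0.0589) and after subtraction of background (adjusted p = 0.0519). The count of higher genes was 2 without RDY234 DMSO replicate A. DDR2, which entered the test through RDY73, had to be high there. With a threshold of 1 conversion 31 of the 35 could be tested, and 13 were higher and 3 lower, against 1.2% and 61.3% of 5601 genes.

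The lower ones were GRE3 (−1.33 ± 0.42), MSN2 (−0.97 ± 0.32), GPD1 (−0.96 ± 0.20), HSP31 (−0.85 ± 0.26) and SOD2 (−0.79 ± 0.20), with adjusted p-values of 0.00311, 0.00455, 9.51e-06, 0.0024 and 0.000357. MSN2 had 26.3, 24.4 and 21.9 scaled labelled reads in RDY73, against 48.0, 35.9 and 59.9 in RDY234, and GPD1 had 76.8, 79.2 and 71.9, against 143, 104 and 199. HSP31 had 35.8, 39.6 and 42.7, against 79.2, 74.7 and 58.6, and SOD2 had 56.8, 83.7 and 108, against 137, 135 and 158. GRE3 had 13.7, 12.2 and 9.38, against 34.8, 20.8 and 34.4. None of the 5 overlapped, and all 5 calls held without any 1 library. With a threshold of 1 conversion GRE3 (−0.39, adjusted p = 0.201), MSN2 (−0.46, adjusted p = 0.0714) and SOD2 (−0.32, adjusted p = 0.0809) did not pass, and GRE3 entered the test through RDY234, where it was high. Without RDY73 DMSO replicate C, UBI4 (−0.65) also passed as lower, and HOR7 passed as higher without RDY73 DMSO replicate A (0.43) or RDY234 DMSO replicate C (0.49). Under relative scaling 6 of the 18 were higher in RDY73 and 0 lower, against 5.64% and 2.95% of all genes.

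The 4tU pulse itself was compared with no 4tU in cells without IAA. HSP31 (YDR533C, chromosome IV 1501447 to 1502160), a methylglyoxalase and chaperone, rose in both strains. It had 271, 351 and 241 scaled reads with 4tU in RDY73, against 158, 173 and 170 without it, a rise of 0.77 ± 0.15 (adjusted p = 0.00112) that was lost without DMSO replicate B (0.61, adjusted p = 0.0542). In RDY234 it had 420, 436 and 401 with 4tU, against 166, 182 and 170 without, a 2.43-fold rise (1.28 ± 0.14, adjusted p = 1.85e-08) that held without any 1 library. Neither strain's groups overlapped. It was the 1 gene of the 35 to rise in either strain, and all genes rose at 0.508% in RDY73 and 0.393% in RDY234. The difference between strains was −0.51 ± 0.21 (adjusted p = 0.999), and 0% of all genes passed as higher and 0% as lower in that comparison. None of the 35 passed it in edgeR or DESeq2, with 1 higher and 1 lower at an unadjusted p under 0.05 in either tool.

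None of the 35 fell with 4tU in RDY73 in edgeR or DESeq2, against 0.148% of all genes, with 4 lower at an unadjusted p under 0.05 in either tool. In RDY234 XBP1 fell, against 0.18% of all genes. XBP1 had 38.4, 26.4 and 54.5 scaled reads with 4tU, against 86.2, 68.8 and 85.4 without it, a fall of 1.03 ± 0.23 (adjusted p = 0.0148) with no overlap. That call was lost without RDY234 control replicate A (−0.98) or C (−0.99) or RDY234 DMSO replicate A (−1.02) or B (−0.79), and in the fit of the compared libraries alone (adjusted p = 0.116). In RDY73 XBP1 had 79.2, 81.9 and 76.7 with 4tU, against 133, 126 and 123 without, also without overlap (−0.69 ± 0.20, adjusted p = 0.157), and there the fit of the compared libraries alone passed (adjusted p = 0.0141). STF2 (−0.55, adjusted p = 0.0629) passed as a fall in RDY234 without control replicate C (−0.59) and in DESeq2 (adjusted p = 0.0472). HSP12 (0.13 and −0.05), DDR2 (−0.21 and −0.32), YGP1 (−0.13 and −0.14) and CTT1 (−0.27 and −0.42) did not pass in RDY73 or RDY234.

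Together the 35 genes took 0.905% ± 0.069 of all reads in RDY73 with IAA, 0.627% ± 0.025 with DMSO and 0.666% ± 0.024 in the control (SD, n = 3), against 0.337% ± 0.044, 0.279% ± 0.019 and 0.316% ± 0.042 in RDY234. HOR7 alone supplied 47.5% to 53.3% of their reads on average in a group. The share of their reads that was labelled was 2.11% ± 0.14 in RDY73 with IAA and 2.24% ± 0.22 with DMSO, against 2.44% ± 0.16 and 4.08% ± 0.31 over all genes. In RDY234 it was 5.73% ± 0.70 with IAA and 5.28% ± 0.25 with DMSO, against 6.90% ± 0.69 and 7.29% ± 0.12 over all genes. Without HOR7 the share of the others was 2.85% ± 0.28 in RDY73 with IAA and 3.23% ± 0.37 with DMSO, and 7.90% ± 0.52 in RDY234 with IAA and 7.77% ± 0.50 with DMSO. The labelled share below that of all genes thus rested on HOR7 in 3 of the 4 groups, and in RDY73 with DMSO it was also below without HOR7. The controls without 4tU gave 0.272% ± 0.036 in RDY73 and 0.386% ± 0.078 in RDY234. HSP12 had a low labelled share, 1.24% ± 0.13 in RDY73 with IAA and 0.644% ± 0.084 with DMSO, and that of MSN4 was high, 10.6% ± 7.6 with IAA and 16.4% ± 0.86 with DMSO. These shares came from 1 to 88 labelled reads of each of those genes in a library.

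Genes that act upstream of Msn2 and Msn4, 48 in all from the cAMP, TOR, Snf1, osmosensing and GSK-3 kinase pathways and nuclear transport, were measured in the same fits. In RDY73 with IAA, total RNA of 43 of 47 tested fell and that of 0 rose (0 higher at an unadjusted p under 0.05), with a median of −1.18, near the all-gene −1.24, where 77.9% of all genes fell and 1.16% rose. New RNA of 42 of 45 fell and that of 0 rose, where 83.9% of all genes fell and 0.385% rose. The largest falls in total RNA were those of PBS2, the kinase above Hog1 (−2.05 ± 0.18), TAP42, a phosphatase regulator of the TOR pathway (−1.999 ± 0.24), and TOR2 (−1.77 ± 0.16). In the controls 41 of 47 were lower in RDY73 and 1 higher (median −0.62), against 77.5% and 2.21% of all genes, with SSK22, a kinase of the osmosensing branch, at −1.29 ± 0.22. None of the 47 passed with IAA in RDY234 or with 4tU in either strain, with at most 2 in 1 direction at an unadjusted p under 0.05 in edgeR and 3 in DESeq2.

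Lists of neighbouring stress programmes had medians between those of the 35 genes and of the upstream genes. In total RNA of RDY73 with IAA, 2 of 21 trehalose and glycogen genes rose and 8 fell (median −0.19), 1 of 27 Hsf1 chaperone genes rose and 10 fell (−0.14), 2 of 22 Yap1 oxidative stress genes rose and 8 fell (−0.14), and 1 of 18 other stress transcription factors rose and 9 fell (−0.34), where 1.16% of all genes rose and 77.9% fell. BTN2, a chaperone-like sorting factor under Hsf1, rose by 0.77 ± 0.18, and HOT1, a factor of the osmotic response, fell by 2.004 ± 0.24. In the controls, where 2.21% of all genes were higher in RDY73 and 77.5% lower, 5 of 21 trehalose and glycogen genes were higher and 6 lower, with the phosphoglucomutase PGM2 at 0.94 ± 0.16 and the glycogen phosphorylase GPH1 at 0.91 ± 0.17. None of 27 Hsf1 chaperone genes was higher there (0 at an unadjusted p under 0.05) and 22 (81.5%) were lower, a share near that of all genes, with the chaperone SSE1 at −0.94 ± 0.13. In the Yap1 list 2 of 22 were higher and 14 lower. With 4tU, 7 of 22 Yap1 genes rose in RDY73 and 6 in RDY234, against 0.508% and 0.393% of all genes, led by the drug pump FLR1 (2.88 ± 0.15 and 1.94 ± 0.14) and the NADPH oxidoreductase OYE2 (1.96 ± 0.13 and 1.48 ± 0.12). The lists were chosen with earlier results of these data known, so these counts describe them and support nothing further.

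The elements upstream of the genes can be set beside these changes as a description, without a test. In RDY73 with IAA, total RNA rose for 0 of the 9 genes with no element in the window, for 3 of 11 with 1 and for 6 of 15 with 2 or more, and fell for 3, 0 and 0. Medians of the log2 change were −0.30, 0.04 and 0.20. The 3 that fell were ALD2 and the activators MSN2 and MSN4 themselves. Over all genes tested 1.16% rose and 77.9% fell, and these were not split by number of elements. In the controls, 2 of the 9 genes with no element were higher in RDY73, 7 of 11 with 1 and 9 of 15 with 2 or more, and 3, 0 and 2 were lower. The medians there were −0.21, 0.69 and 0.63, and over all genes 2.21% were higher and 77.5% lower. GRE1 and HSP30, with no element in the window, were among the higher genes, and PNC1, with 4, had 0.18 in the controls and 0.20 with IAA, neither past the threshold. For total RNA with IAA in RDY234 the medians for 0, 1 and 2 or more elements were 0.11, 0.078 and 0.259. With 4tU they were 0.037, −0.131 and −0.127 in RDY73 and −0.167, −0.05 and −0.277 in RDY234. These medians did not rise in step with the number of elements.

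**Figure D5:**
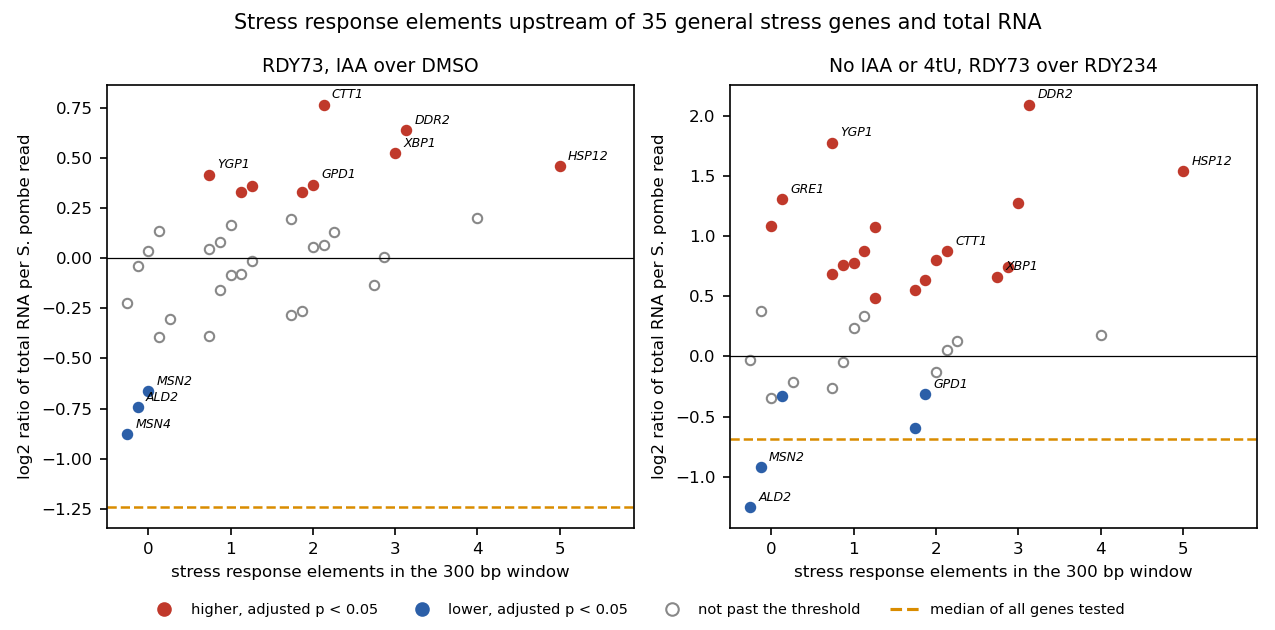
Number of stress response elements in the 300-base upstream window (horizontal axis, points of 1 class spread sideways only to separate them) against the log2 ratio of total RNA per S. pombe read (vertical axis) for the 35 genes, in RDY73 with IAA over DMSO (left) and in RDY73 over RDY234 controls (right), with the all-gene median dashed. Left, the 9 genes that rose have 1 to 5 elements and the 3 that fell have 0, and right, GRE1 and HSP30 are higher with 0 elements.

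Single windows limit some of these values. The window of ALD3 overlaps CEP3 and that of SIP18 overlaps YMR175W-A on the same strand. Windows of other genes, HSP12, DDR2, HOR7, RTN2, TMA10, STF2 and XBP1 among them, overlap a gene on the opposite strand, and without a stated use of strand in the counting, reads of such pairs cannot be told apart. Multimapped reads were 0.15% to 1.13% of the reads of a gene.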

How the data were processed

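The authors' deposited tables hold, per the file headers, SLAM-DUNK 0.4.3 counts of reads and of reads with T-to-C conversions in windows of S. cerevisiae and S. pombe genes, here 72 tables of 18 libraries. Per the submitters' processing notes, reads were trimmed with fastp 0.23.2 and bbduk and builds R64 and ASM294v2 were used. A window was the gene and 250 bp downstream for all 35 genes, and no source used here states UMIs or strand use. New RNA was the count of reads with at least 2 conversions, fitted on the 12 libraries given 4tU, and total RNA was the count of all reads, fitted on all 18. Genes with at least 10 reads in at least 3 libraries were tested by edgeR 4.0.16 (R 4.3.3) with quasi-likelihood F tests, with S. pombe reads (labelled or all, to match) summed as library size, and p-values were Benjamini-Hochberg adjusted over all genes tested with a threshold of 0.05. The script was tested on simulated data. The SE is the log2 change over the square root of F. Scaled reads are counts over S. pombe reads at the mean S. pombe depth. The comparisons share libraries. Alternatives were relative scaling, TMM over S. pombe genes, DESeq2 1.42.0, no filter, a replicate block, compared libraries only, each library left out, 1 conversion, and background subtracted with the control libraries. Every gene was accounted for, with per-library values for MSN2, MSN4, the called genes of largest change (up to 8 a comparison) and the 6 of highest total reads; up to 3 called genes of other lists were eligible to be named. The 35 genes and the lists were chosen with earlier results of these data known. Elements were searched 151 to 450 bases before the start codon in R64.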

Additional observations from a re-analysis of the deposited data

Results flagged for a closer look

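For 7 results the effect of IAA differed between RDY73 and RDY234 by a direct test of the difference (edgeR's quasi-likelihood test, Benjamini-Hochberg adjusted). In new RNA the log2 difference, RDY73 minus RDY234, was −2.13 for TMA10, −1.79 for RTN2, −1.45 for MSN4 and −1.07 for MSN2. In total RNA it was −0.85 for MSN4, −0.75 for MSN2 and −0.48 for GRE3. Over all genes tested, 74.2% passed as lower for new RNA and 69.4% for total RNA. The RTN2 and GRE3 calls were lost in DESeq2 and in most fits that left out 1 library. In new RNA those of MSN4 and MSN2 were lost in some of these fits. MSN4 and RTN2 entered the new RNA test through RDY234. The median over all genes tested was −1.82 for new RNA and −1.10 for total RNA, so 6 of the 7 were nearer to 0 than that median and TMA10 was beyond it.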

How the results depend on the processing

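Relative scaling changed the most. It gave 12 genes higher and 0 lower for new RNA with IAA in RDY73, against 16.3% and 11.5% of all genes, and 1 higher in RDY234, against 0.0962%. For the strain difference in that effect 8 were higher and 0 lower, against 11.6% and 6.68%. For RDY73 over RDY234 in DMSO 0 were lower, against 2.95%. For total RNA relative scaling gave 33 higher and 0 lower with IAA in RDY73, against 29.6% and 30.8% of all genes, and 5 higher in RDY234, against 0.23%. For the difference 29 were higher and 0 lower, against 23.1% and 20.9%, and in the controls 29 and 0, against 14.3% and 9.21%. With 4tU it gave 1 lower in RDY73 and 3 lower in RDY234. It turned the sign of new RNA with IAA in RDY73 for SOD2 (1.30), which passed as higher. The signs of RTN2 (0.084), MSN4 (0.23), TMA10 (0.47), GRE3 (0.59) and MSN2 (0.85) turned too, but these did not pass. In the strain difference HOR7 (1.204), SOD2 (1.24) and YGP1 (1.29) turned and passed, while MSN4 (0.082) and MSN2 (0.49) turned without passing. For new RNA between strains MSN2 (0.17), GPD1 (0.19), HSP31 (0.28) and SOD2 (0.35) turned and none passed. In total RNA with IAA in RDY73, MSN2 (0.48) turned and passed, and MSN4 (0.26) and ALD2 (0.39) turned without passing. In the strain difference for total RNA, GRE3 (0.56), HOR7 (1.00) and SOD2 (0.97) turned and passed, and MSN4 (0.17) and MSN2 (0.27) turned without passing. In the controls SOD2 (0.46) and GPD1 (0.35) turned and passed as higher. The values relate to all S. cerevisiae genes instead of S. pombe reads. A threshold of 1 conversion gave 5 higher for new RNA with IAA in RDY73, against 34 of 5601 genes. Between strains it gave 13 higher and 3 lower, against 67 and 3432 of 5601 genes. Subtracting background gave 2 higher there, against 14 of 5169 genes, and TMM over S. pombe genes 9 lower, against 4721 of 5195 genes. Compared libraries only gave 1 lower for new RNA with IAA in RDY73, against 2724 of 3224 genes. There MSN4, RTN2 and GRE3 could not be tested and MSN2 lost its call. This setting gave 1 higher for new RNA in RDY234, against 2 of 5166 genes, and with 4tU 1 lower in RDY73 and 0 lower in RDY234. No filter gave 1 higher for the difference in new RNA, against 12 of 6307 genes. With 4tU in RDY234, TMM over S. pombe genes and DESeq2 each gave 2 lower, and TMM over S. pombe genes gave 2 lower in the controls. The other causes were not tested. Leaving out each library gave 2 to 5 lower for new RNA with IAA in RDY73, 0 to 1 higher in RDY234, 0 to 1 higher and 2 to 5 lower for the difference, and 2 to 5 higher between strains. In total RNA it gave 4 to 9 higher in RDY73, 0 to 1 higher in RDY234, with 4tU 0 to 1 higher in RDY73 and 0 to 1 lower in RDY234, and 2 to 7 lower in the controls. All-gene counts are not given for these fits. Nor are they for the 4tU counts above or the controls under TMM over S. pombe genes. Those counts show only how far the calls of the 35 genes moved. The replicate letters did not pair the libraries (correlations of −0.101 to 0.132 between deviations of libraries with the same letter). A replicate block gave 3 higher and 4 lower for new RNA with IAA in RDY73, against 16 and 4312 of 5195 genes, and lost GRE3 (−1.08, adjusted p = 0.0574). For total RNA with IAA in RDY73 it gave 9 higher and 2 lower and lost ALD2 (−0.75, adjusted p = 0.0504), with no all-gene count given. In the difference for new RNA it lost RTN2 (−1.74, adjusted p = 0.0708). The block was not run for the 2 comparisons between strains, nor compared libraries only for the difference in new RNA, where all 12 libraries enter. Low labelled counts limit new RNA, as 17 of the 35 genes were not tested.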
